A study of Mus musculus with 6 samples.

Results

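Strong distal ATAC-seq peaks whose deposited signal differed little between quiescent and proliferating B-cells were examined. ATAC-seq uses a transposase that cuts open chromatin and inserts sequencing adapters, so the reads in a peak measure how accessible that stretch of DNA was. Bone marrow B-cells of PEtg mice, a strain name that the labels do not expand, were sorted by H2B-GFP, a fluorescent histone that is diluted at each division. H2B-GFP high cells are labelled quiescent (n = 3 samples) and H2B-GFP low cells proliferating (n = 3 samples). Both groups come from PEtg mice, and no other strain was compared. The labels used here give no age, sex or pooling of animals, and they leave it unsaid if each sample is a mouse of its own, so every p-value below speaks of the spread among these 6 samples, part of which may be technical.

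A peak was taken as a member if its mean deposited signal over the 6 samples was at least 1000, it was narrower than 3000 bp, it lay more than 2.5 kb from either end of every protein-coding gene in a RefSeq table of GRCm38.p6, and the log2 ratio of the group means (each plus 1) lay between -0.2 and 0.2. Of 97124 peaks, 4411 had that strength, 2818 of these were also narrow and distal, and 1281 met the whole rule. The other 1537 strong distal peaks lay outside the fold band, 799 higher and 738 lower in quiescent cells. The members were chosen by measured values, the strength and the quiescent against proliferating fold, so both are given below as descriptions with no test.

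**Figure D1:**
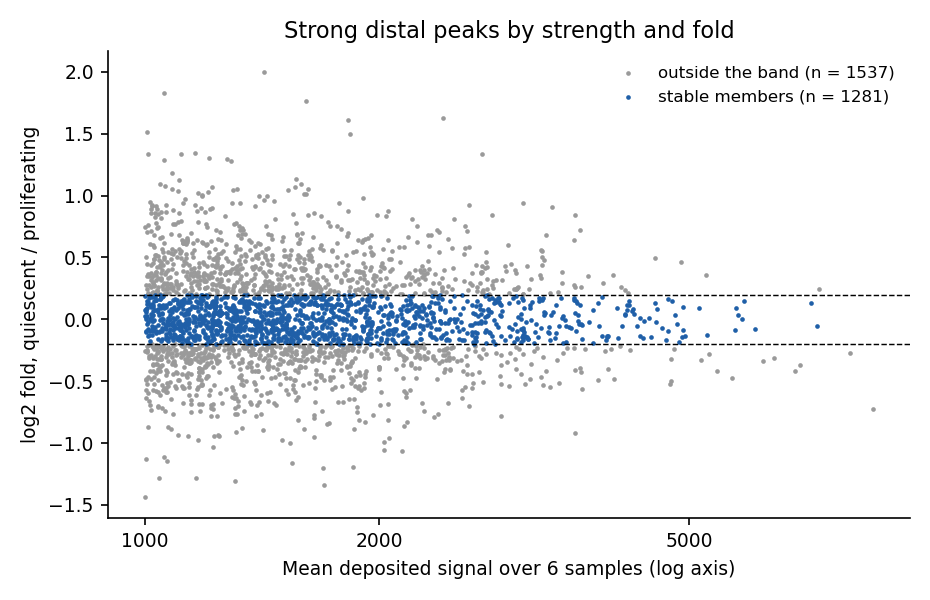
Each point is a strong distal peak, placed by its mean deposited signal over 6 samples (log axis) and its log2 fold of quiescent over proliferating means. The dashed lines at -0.2 and 0.2 enclose the 1281 members (blue), and the 1537 peaks outside them are grey.

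Distal open regions include enhancers, which transcription factors hold open and which act on promoters at a distance, insulators, where CTCF and cohesin anchor chromatin loops, and the start sites of non-coding RNAs. In B cells, enhancers are bound by lineage factors such as PAX5, EBF1, E2A, RUNX1 and PU.1. Enhancers are often restricted to a cell type or state, while insulators and start sites of housekeeping RNAs tend to be open in many cell types.

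Some members were starts of RNAs. An annotated transcript start lay in 75 members (5.85%), a start of a protein-coding gene inside that gene's body in 31 of them and of long non-coding RNAs (lncRNAs) alone in the other 44. The share was 4.29% among strong distal peaks outside the band, 19.2% among all strong peaks and 9.51% among all peaks. Sequences before such starts are shown because they are the stretches of members whose letters were at hand. They are the 250 bases before the start (RefSeq, GRCm38.p6, strand of the transcript, 5′ to 3′) for 6 of the strongest members that hold the whole stretch, and for Mir22hg and Chaserr, a pair of named regulatory RNAs chosen after their values were seen. Capitals mark matches on either strand to TGTGGT (the RUNX core), CCAAT (the NF-Y box), GGGCGG (the SP and KLF box) or TGGGAA (an Ikaros-like string).
Gm30198, lncRNA, chr12:102451483-102451732, plus strand: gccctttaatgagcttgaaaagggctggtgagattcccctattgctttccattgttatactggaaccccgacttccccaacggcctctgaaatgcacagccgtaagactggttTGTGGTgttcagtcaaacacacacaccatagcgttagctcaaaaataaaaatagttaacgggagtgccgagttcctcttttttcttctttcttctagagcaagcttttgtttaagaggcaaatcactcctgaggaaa
Gm2848, lncRNA near Syk, chr13:52573226-52573475, minus strand: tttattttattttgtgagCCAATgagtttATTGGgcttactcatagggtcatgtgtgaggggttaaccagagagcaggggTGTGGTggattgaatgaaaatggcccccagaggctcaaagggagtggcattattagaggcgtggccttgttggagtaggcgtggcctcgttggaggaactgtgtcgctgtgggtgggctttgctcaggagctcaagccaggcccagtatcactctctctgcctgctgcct
Wdfy4, protein-coding, chr14:33185067-33185316, minus strand: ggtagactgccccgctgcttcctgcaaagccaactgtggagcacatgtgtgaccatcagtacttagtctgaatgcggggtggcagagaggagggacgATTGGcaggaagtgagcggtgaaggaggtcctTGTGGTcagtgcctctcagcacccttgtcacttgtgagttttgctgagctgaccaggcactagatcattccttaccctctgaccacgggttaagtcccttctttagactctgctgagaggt
Nt5c2, protein-coding, chr19:46969569-46969818, minus strand: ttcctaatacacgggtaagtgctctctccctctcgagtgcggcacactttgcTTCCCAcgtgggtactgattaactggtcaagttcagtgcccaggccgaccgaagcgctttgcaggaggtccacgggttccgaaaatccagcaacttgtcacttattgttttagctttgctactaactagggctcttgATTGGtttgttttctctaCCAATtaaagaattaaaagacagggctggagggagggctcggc
Filip1l, protein-coding, chr16:57548992-57549241, plus strand: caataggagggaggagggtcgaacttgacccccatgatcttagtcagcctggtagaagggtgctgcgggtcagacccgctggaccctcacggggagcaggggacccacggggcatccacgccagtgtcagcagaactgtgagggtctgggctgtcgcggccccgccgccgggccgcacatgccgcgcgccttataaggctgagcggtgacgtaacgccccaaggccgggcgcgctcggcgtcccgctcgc
Gm32249, lncRNA near Ccr7, chr11:99168062-99168311, plus strand: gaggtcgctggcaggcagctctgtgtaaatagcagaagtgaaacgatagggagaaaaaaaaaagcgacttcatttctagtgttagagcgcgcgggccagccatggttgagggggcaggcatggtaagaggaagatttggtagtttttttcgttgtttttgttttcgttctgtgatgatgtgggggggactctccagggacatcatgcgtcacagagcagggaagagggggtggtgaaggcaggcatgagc
Mir22hg, lncRNA, chr11:75461289-75461538, plus strand: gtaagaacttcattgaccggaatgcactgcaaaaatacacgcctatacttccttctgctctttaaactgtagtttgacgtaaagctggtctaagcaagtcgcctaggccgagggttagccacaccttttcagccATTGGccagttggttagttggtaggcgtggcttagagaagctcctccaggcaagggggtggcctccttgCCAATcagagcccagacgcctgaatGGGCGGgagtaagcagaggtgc
Chaserr, lncRNA beside Chd2, chr7:73558396-73558645, minus strand: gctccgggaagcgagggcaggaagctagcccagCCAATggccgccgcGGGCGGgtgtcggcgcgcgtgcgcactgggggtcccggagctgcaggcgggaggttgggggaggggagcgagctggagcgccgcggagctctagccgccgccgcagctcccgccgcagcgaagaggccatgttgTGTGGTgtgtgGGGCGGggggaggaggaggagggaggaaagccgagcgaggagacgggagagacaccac

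The 8 stretches are unlike each other in base composition. Chaserr, the lncRNA that lies before the chromatin remodeller gene Chd2, has 73.6% G and C and an observed over expected CpG ratio of 0.88, the pattern of a CpG island, and Filip1l has 68.8% and 0.85. Gm30198 has 44.0% and 0.5, and Gm2848 has 52.4% and 0.25. Over all 91 starts in members the median G and C content was 51.2% and the median CpG ratio 0.347. Over the 11894 starts in any peak these medians were 59.2% and 0.729. Over all 32851 starts that RefSeq lists here they were 52.4% and 0.373. Starts in members were thus poorer in CpG than starts in any peak, and the rule keeps out the outer ends of protein-coding genes.

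Of 14 strings searched on both strands of the same 250 bases, the shares below are given for starts in members, in any peak and in all. GGGCGG stood before 27.5% of starts in members, 55.8% of starts in any peak and 32.7% of all starts. CAGGTG, the E-box read by E2A, stood before 29.7% of starts in members (27 of 91), 14.8% of starts in any peak and 17.2% of all starts. TGTGGT stood before 20.9%, 11.3% and 14.0%. CCAAT stood before 30.8%, 36.1% and 33.8%, and TGGGAA before 17.6%, 20.0% and 21.6%. The string for the CTCF core stood before 2.2% of starts in members (2 of 91), 2.93% of starts in any peak and 2.07% of all starts. The PU.1 string stood before 1.1%, 2.99% and 2.44%, the EBF1 string before 1.1% (1 of 91), 0.841% and 0.779%, and the ETS string before 2.2%, 6.53% and 2.88%. Among the others, the AP-1 string TGANTCA stood before 4.4%, 4.17% and 6.75%, CAGCTG before 14 of 91 starts in members, the joint ETS and IRF string before 2.2%, 2.01% and 2.3%, the octamer before 1.1%, 1.53% and 1.6%, and the YY1 string ATGGCGG before 0 of 91, 4.14% and 2.21%. These are counts of letters and not of bound factors, and they describe the 75 members with a start and not the rest.

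Before the values, a property of the deposited numbers bears on the word stable. Low values were whole multiples of a step that stands for 1 read, and the size of that step differed with peak strength. In proliferating sample 1 a read was worth 1.31 in the weakest 10% of peaks and 2.73 in members, and in quiescent sample 1 it was worth 1.06 and 0.709. Strong and weak peaks of a sample had thus been scaled by different factors. In estimated reads, members took 11.9%, 11.3% and 11.5% of the reads in peaks in quiescent samples 1, 2 and 3, against 10.9%, 10.6% and 10.2% in proliferating samples 1, 2 and 3. The groups did not overlap. Peaks below the median of the mean signal took 6.18%, 6.75% and 6.95% of the reads in quiescent samples, and 9.11%, 8.63% and 9.28% in proliferating samples. In deposited signal, members took between 11% and 11.2% in every sample.

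With the estimated reads scaled by 1 factor per sample, members no longer centred on 0. Scaled to the total reads in peaks, the median member lay 0.12 above 0 on the log2 scale in quiescent cells while the median of all tested peaks lay at -0.21. Then 906 members stayed between -0.2 and 0.2, 375 lay above and 0 below. With median-of-ratios size factors, as count models use, the medians were 0.35 for members and 0.02 for all tested peaks, and 130 members stayed in the band, with 1151 above it and 0 below. In both cases members lay 0.33 above the median of tested peaks. Strong distal peaks outside the band moved the same way, from a median of 0.21 on deposited values to 0.32 and 0.56. By the rule none of these has a deposited fold between -0.2 and 0.2, and 799 lay above and 738 below. Their deposited median thus sits at the band's edge and is not a typical fold. What sets the difference in reads between strong and weak peaks was not tested. All folds below are on the deposited scale unless stated.

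**Figure D2:**
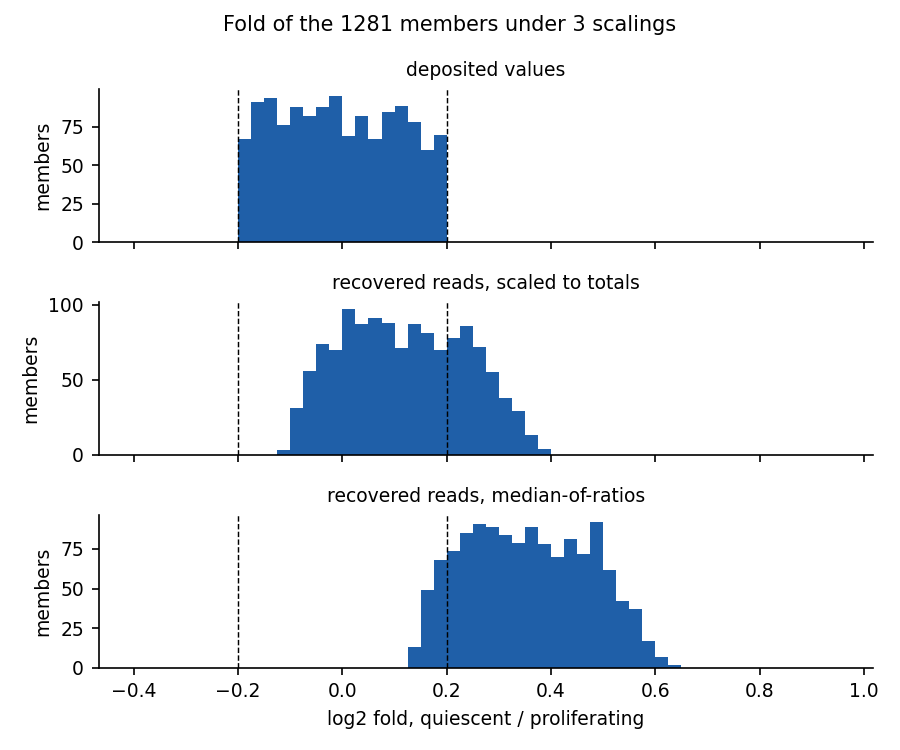
Histograms of the log2 fold, quiescent over proliferating, of the 1281 members on the deposited values (top), on estimated reads scaled to their totals (middle) and on estimated reads with median-of-ratios factors (bottom); dashed lines mark -0.2 and 0.2. The medians move from -0.01 to 0.12 and 0.35, and the number of members between the lines from 1281 to 906 and 130.

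The strongest member lay in the body of St3gal6, which encodes a sialyltransferase (chromosome 16, 58500853 to 58503352). Its signal was 7237, 7054 and 7158 in quiescent samples 1, 2 and 3, against 7900, 7262 and 7145 in proliferating samples 1, 2 and 3. The groups overlapped, and proliferating sample 1 was the highest. The next lay between genes, 5379 bp from Fsip1 (chromosome 2, 118262366 to 118264929). It gave 8131, 7742 and 6593 in quiescent cells, against 5964, 7423 and 7151 in proliferating cells, again overlapping, with proliferating sample 1 now the lowest.

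A member 13292 bp from Lgmn, which encodes the lysosomal protease legumain, was paired with another strong member (chromosome 12, 102453020 to 102454863 and 102449942 to 102452587). The stronger of them gave 7162, 5727 and 5673 in quiescent cells, against 6621, 5210 and 4915 in proliferating cells. Sample 1 was the highest in each group, and the groups overlapped (limma, adjusted p for number = 0.0492). The weaker, with a mean of 4186, holds the start of Gm30198 shown above.

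Some others of the 10 strongest lay far from genes. A member 162007 bp from the nearest protein-coding gene end (chromosome 9, 116337370 to 116339161), at an end of the lncRNA D730003K21Rik, gave 5145, 6109 and 6322 in quiescent cells, against 5553, 5777 and 5795 in proliferating cells. A member 136600 bp from any such end (chromosome 1, 166818445 to 166820776) gave 5605, 5166 and 5175, and 5213, 4754 and 5041. Nearer to genes, one 7029 bp from the natural killer receptor gene Klrb1 had a mean of 5743 and one 12217 bp from Plac8 a mean of 5729. In each of these 4 the groups overlapped.

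**Figure D3:**
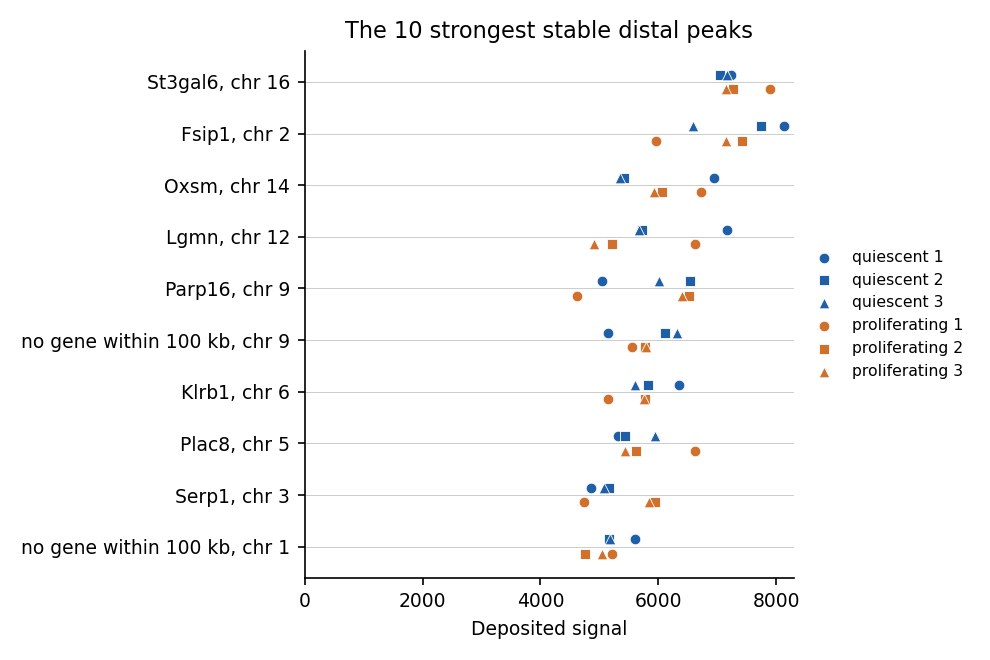
Deposited signal of the 10 strongest members in each sample (circle, square and triangle for samples 1, 2 and 3; blue quiescent, orange proliferating), labelled by the nearest protein-coding gene within 100 kb and the chromosome. Blue and orange points intermingle, and in 4 rows, St3gal6, Oxsm, Lgmn and chromosome 1, sample 1 is the highest of each colour.

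The most even member lay in the body of Tle4, which encodes a Groucho-type corepressor (chromosome 19, 14585028 to 14586843). It gave 1166, 1217 and 1169 in quiescent cells, against 1205, 1166 and 1198 in proliferating cells, a coefficient of variation over the 6 samples of 1.91%. A member in Fbxo11, which encodes a ubiquitin ligase subunit, gave 1676, 1682 and 1698, and 1603, 1727 and 1738 (2.86%). A member in Apbb1ip, which encodes an adaptor of integrin activation, holds an internal start of that gene and gave 2160, 2188 and 2185, and 2144, 2281 and 2323 (3.24%). The other members among the 8 most even lay in or near Ralgps2, Ppp1r12a, Tcea3, Rab31 and Cradd, from 2.15% to 3.05%. At these peaks the highest sample exceeded the lowest by at most 1.09 times.

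Over all members the median coefficient of variation was 10.5%, and the highest sample exceeded the lowest by less than 1.5 times in 1028 (80.2%) and by 2 times or more in 29 (2.26%). The fold band itself narrows this range. The spread inside the groups is not in the band's formula, but a wide spread can push group means apart and a peak out of the band. The rule thus favours a lower spread in members than outside the band. This spread had a median SD of 0.154 on the log2 scale in members, with an interquartile range of 0.105 to 0.216. It was 0.177 in strong distal peaks outside the band, 0.16 in all strong peaks and 0.355 in all peaks. Counting error alone, from the estimated reads, would give a median SD of 0.04 in members, and the measured SD was above its own counting value in 1266 of them (98.8%). The median member held 588 reads in proliferating sample 1, the shallowest, and 3333 in proliferating sample 3.

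Precision limits what stable can mean. In limma, fitted over 87411 peaks, 5876 (6.72%) passed an adjusted p of 0.05 between the groups, 3501 higher and 2375 lower in quiescent cells. That balance changed with the scaling of estimated reads in limma-voom. It reversed with total scaling, to 4378 higher and 8648 lower. With median-of-ratios factors it kept its direction and grew, to 8727 higher and 3486 lower. Of the 1281 members 0 passed and 0 had an unadjusted p under 0.05, which the rule brings about and from which nothing is read. With the replicate number as a block 18.3% of tested peaks and 0 members passed, 7 members having an unadjusted p under 0.05. On estimated reads, limma-voom called 38 members (2.97%) with total scaling, beside 14.9% of tested peaks, and 335 (26.2%) with median-of-ratios factors, beside 14.0%. The 95% interval of a member's log2 fold had a median half-width of 0.292. It lay wholly between -0.5 and 0.5 in 1068 members (83.4%) and wholly between -0.2 and 0.2 in 0. The rule centres these intervals near 0, so the first share is largely set by it. It was 7.22% outside the band, 46.6% in all strong peaks and 7.46% in all tested peaks. The groups did not overlap in 104 members (8.12%), against 30.4% of tested peaks, a share that the rule lowers.

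A test that does not use the fold asked whether samples 1, 2 and 3 differed regardless of state. In limma, 3443 of 87411 tested peaks (3.94%) passed an adjusted p of 0.05 for the sample number, and 91 members did (7.1%). The share was 9.24% in strong distal peaks outside the band and 7.53% in all strong peaks, so the share in members was close to that of strong peaks as a whole. In 88 of the 91 members number 1 stood farthest from the mean of the numbers, 62 times as the highest and 26 times as the lowest. This split also depends on the strength limit, which a peak can meet through high values of number 1 alone. The labels do not say what samples of a number share. Quiescent sample 1 held 28198425 estimated reads in peaks and proliferating sample 1 8052647, the lowest, and the part of depth in these calls was not tested.

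The member of widest spread lay in the body of Sema5a, which encodes a semaphorin (chromosome 15, 32264712 to 32267077). It gave 2790, 285.2 and 521.6 in quiescent samples 1, 2 and 3, against 2538, 245.9 and 486.4 in proliferating samples 1, 2 and 3. Number 1 was high in both states and numbers 2 and 3 were low, and the groups overlapped (limma, adjusted p for number = 1.59e-05, log2 fold between states 0.15). A member in Pmfbp1 gave 2444, 1270 and 928.4, and 2988, 938 and 952.4 (adjusted p = 0.00137 in limma). A member in Magi1, which encodes a junction scaffold, gave 1528, 674.9 and 818.7, and 1879, 571.3 and 789.1 (adjusted p = 0.00167 in limma).

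The same order held at the other members of widest spread. Near Gclc, which encodes a subunit of the enzyme that starts glutathione synthesis, the values were 2515, 865.5 and 1049, and 2121, 1268 and 1376. A peak on chromosome 7 with no gene within 100 kb gave 3323, 1703 and 1444, and 3413, 1848 and 1494. Peaks near Cyria, in Diaph1 and near Abcg2 had coefficients of variation of 40.4%, 39.8% and 39.5%. At all 8 of these members sample 1 was the highest in each group. They meet the rule on group means while differing between samples by up to 11.3 times.

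**Figure D4:**
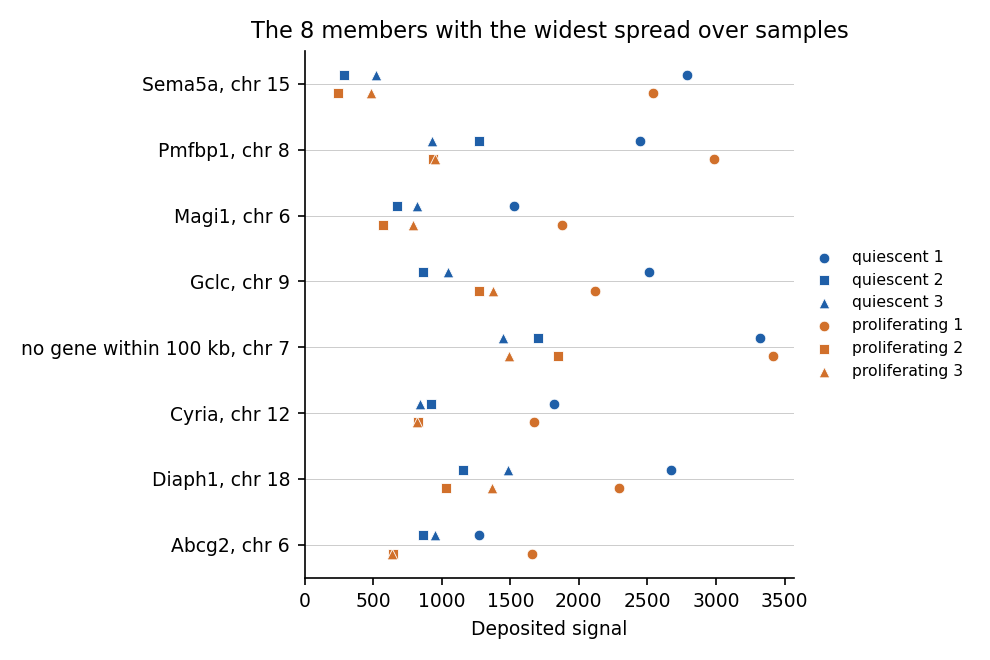
Deposited signal by sample at the 8 members with the highest coefficient of variation (circle, square and triangle for samples 1, 2 and 3; blue quiescent, orange proliferating). In every row the circles of both colours lie to the right, as at Sema5a, with 2790 and 2538 against 245.9 to 521.6. The limits on mean signal and group means, with the choice by spread, partly set this order.

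Number 1 was low at other members. In the body of Itgam, which encodes the myeloid integrin CD11b, the values were 2490, 3534 and 3354 in quiescent cells, against 2473, 4093 and 3976 in proliferating cells (limma, adjusted p for number = 0.0133). Over all members, proliferating sample 1 was the highest of the 6 in 341 (26.6%) and the lowest in 257 (20.1%), and quiescent sample 1 the highest in 242 (18.9%) and the lowest in 319 (24.9%). The highest value thus came most often from proliferating sample 1 and the lowest from quiescent sample 1. Quiescent sample 2 was the highest in 139 (10.9%) and the lowest in 163 (12.7%).

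Genes of small structural RNAs stood at several of the strongest members. Small nuclear RNAs (snRNAs) form the core of the spliceosome, and tRNAs carry amino acids to the ribosome, so both are made in nearly every cell. An end of an snRNA gene lay within 1 kb of 12 members (0.937%), against 0.15% of all peaks, 0.861% of all strong peaks and 0.716% of strong distal peaks outside the band. An end of a tRNA gene lay within 1 kb of 15 members (1.17%), against 0.196% of all peaks, 0.975% of all strong peaks and 0.26% of strong distal peaks outside the band. The rule counts distance to protein-coding genes only, so such peaks are distal by that rule although they sit on genes.

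The snRNA members were strong, with a median mean signal of 3063, against 1550 over all members. At Rnu5g, a U5 gene (chromosome 9, 65200243 to 65202608), the signal was 5036, 6542 and 6006 in quiescent cells, against 4627, 6520 and 6400 in proliferating cells. Sample 1 was the lowest in each group (limma, adjusted p for number = 0.0382). At Rnu1a1, a U1 gene inside the bounds of Tex14 (chromosome 11, 87421880 to 87424447), it was 4492, 5372 and 4437, and 3430, 5637 and 5604. Of the 10 strongest members, the one at Rnu5g was at an snRNA gene, and a peak with a mean of 4702 at Gm25313, another snRNA gene, lay beside it.

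At Rnu11, which encodes the U11 RNA of the minor spliceosome (chromosome 4, 132268728 to 132270838), the values were 2793, 3540 and 3369, and 2470, 3772 and 3893. The peak at Rnu3b1, a U3 gene that the table classes as snRNA (chromosome 11, 87442182 to 87444366), gave 2622, 2638 and 2616, and 3203, 2941 and 2896, with a log2 fold of -0.197 at the edge of the band. There every quiescent sample lay below every proliferating sample. Proliferating sample 1 was the lowest of the 6 at 6 of the 12 snRNA members.

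The tRNA members ran from 1071 to 1932 in mean signal (median 1306). The strongest held 4 tRNA genes for proline, aspartate, glycine and tryptophan by their symbols, near Ctc1 (chromosome 11, 69039351 to 69042033), and gave 1696, 2224 and 2035 in quiescent cells, against 1361, 2062 and 2217 in proliferating cells. Proliferating sample 1 was the lowest of the 6 there and at 12 of the 15 tRNA members, against 20.1% of all members. Of the 15, 5 lay on chromosome 13 between 21709761 and 23447384, among them peaks near the histone genes H2bc11 and H2bc13. The one near Btn1a1 (23445194 to 23447384) gave 1450, 1485 and 1464, and 1032, 1588 and 1630. There proliferating sample 1 lay below every quiescent sample and proliferating samples 2 and 3 above them. What the low values of proliferating sample 1 at tRNA genes reflect was not tested; it was also the library with the fewest reads.

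**Figure D5:**
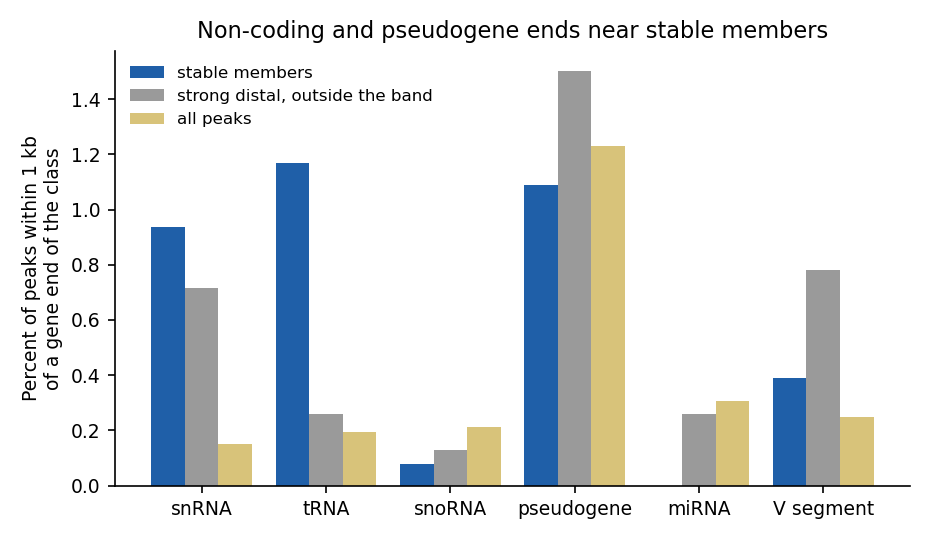
Percent of peaks within 1 kb of an end of a gene of each class, for the 1281 members (blue), the 1537 strong distal peaks outside the fold band (grey) and all 97124 peaks (sand). The bars for tRNA stand at 1.17%, 0.26% and 0.196%, and those for snRNA at 0.937%, 0.716% and 0.15%.

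Ends of lncRNA genes lay within 1 kb of 127 members (9.91%), of 7.22% of strong distal peaks outside the band, of 10.6% of all strong peaks and of 6.54% of all peaks. Pseudogene ends stood at 14 members (1.09%, against 1.23% of all peaks), a snoRNA gene at 1, and miRNA genes at 0, against 0.305% of all peaks. Gene segments of antigen receptors, which B cells cut and join to make antibodies, are counted apart from protein-coding genes. An end of a V segment lay at 5 members (0.39%, against 0.248% of all peaks and 0.781% of strong distal peaks outside the band). The strongest, at Ighv8-12 in the heavy-chain locus (chromosome 12, 115646996 to 115648894), gave 5156, 4837 and 4926 in quiescent cells, against 3888, 4582 and 4829 in proliferating cells. Every quiescent sample lay above every proliferating one, by a log2 fold of 0.17.

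Members were split evenly between gene bodies and the space between genes. Of 1281 members, 642 (50.1%) overlapped a protein-coding gene and 112 (8.74%) had none within 100 kb. These shares were 49.6% and 11.3% in strong distal peaks outside the band. The median distance to a protein-coding gene end was 23473 bp, with 355 members (27.7%) over 50 kb and 170 (13.3%) over 100 kb from any. Outside the band the median was 27468 bp and the shares were 33.5% and 16.7%. These are descriptions of peaks whose strength also differed, with a median mean of 1550 in members and 1439 outside the band. Their median width was 1864 bp, against 1788 bp outside the band.

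The share of strong distal peaks in the band was 41.7% at a mean of 1000 to 1500, 46.5% at 1500 to 2000, 48.5% at 2000 to 3000, 61.9% at 3000 to 5000 and 45.5% of the 22 peaks above 5000. On the numbered chromosomes it ran from 36.5% on chromosome 8 to 53.7% on chromosome 19. The peaks just inside the fold limit lay near Nup160, in Tex14 and near Ago4, each at a log2 ratio of -0.199 from the band's own formula, and those just outside in Poc1b and near Begain at -0.2 and near Smndc1 at 0.2. Just inside the strength limit were peaks near Elk3, in Rere and on chromosome 14 far from genes, each just above 1000, and just outside were means of 999.5, 999.4 and 998.1. The gene-end limit was met by 2513 bp near Col6a6 and missed by 2498 bp in Ifi209, and the width limit was met by 2999 bp near Foxo1 and missed by 3003 bp in Ppp1r21.

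Most members stood alone. Joined up to a fixed limit on the gap between neighbours, under which the widest gap joined was 12331 bp, 193 members (15.1%) formed 90 groups of 2 or more, and 10 groups had 3 or more. The largest held 4 members each. One lay in Jakmip1, which encodes a microtubule-binding protein (chromosome 5, 37050282 to 37077726), with means of 1160 to 3070 and log2 folds between -0.125 and 0.121. Another lay in Heg1, which encodes a membrane protein of vessel junctions (chromosome 16, 33731873 to 33752428), with means of 1141 to 1889. The third lay more than 100 kb from any protein-coding gene on chromosome 9 (60998068 to 61023258), with means of 1135 to 1603, and the peak at 61012480 holds the start of a lncRNA.

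Weaker peaks around members were called about as often as weaker peaks in general. Within the same limit of a member, which lies slightly above that widest gap, 315 of 4823 weaker tested peaks (6.53%) passed between the states in limma. The share was 6.49% over all 83000 weaker tested peaks and 8.77% around strong distal peaks outside the band.

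The 1169 members with a gene within 100 kb fell to 934 genes, of which 757 had a single member and 11 had 4 or more. Of the 934 genes, 289 also had a strong distal peak outside the band, higher in quiescent cells in 162 and lower in 171, with both in 44. Foxp1, a forkhead factor of B-cell development, had the most members, 5 of its 127 peaks. Of the 127 peaks, 7 passed as higher and 3 as lower in quiescent cells in limma, beside 6.72% of all tested peaks in either direction. Runx1, with 4 members of 60 peaks, had 4 peaks that passed as higher and 1 as lower, none of them a strong distal peak outside the band. These counts at Foxp1 and Runx1 are small, and nothing is read from them. Nedd9, which encodes an adhesion scaffold, had 4 members beside 1 strong distal peak above and 3 below the band. Lef1, a transcription factor of the Wnt pathway used in early B cells, had 4 members beside 1 above and 1 below.

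Gene lists of blood cells were compared by their share of members and of all peaks, and several lists, of B cells and of other cells, held a larger share of members. In a list of 28 B-lineage transcription factors, 14 genes had members, 28 in all (2.19% of members), against 1.12% of all peaks and 1.43% of strong distal peaks outside the band. The strongest, 40596 bp from Runx1 (chromosome 16, 92866670 to 92869460), gave 5642, 4707 and 4893 in quiescent cells, against 5531, 4172 and 4517 in proliferating cells. A member in Mef2c, a factor of B-cell signalling responses (chromosome 13, 83607656 to 83610156), gave 4613, 4366 and 4051, and 4439, 4378 and 4144. Its coefficient of variation was 4.71%.

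Members near surface and signalling genes of B cells numbered 11, in 8 of 29 genes (0.859% of members, 0.308% of all peaks and 0.651% outside the band). A member 12837 bp from Il7r, the interleukin-7 receptor on which early B cells depend (chromosome 15, 9490786 to 9493322), gave 4668, 3464 and 2910 in quiescent cells, against 3848, 4507 and 3797 in proliferating cells. Quiescent samples 1 and 3 were its highest and lowest values, so its group means are close despite a wide spread. The member at Gm2848 near Syk, a kinase of the B-cell receptor, gave 3535, 3323 and 3900, and 3637, 3662 and 3814. A member 15097 bp from Cxcr4, the receptor that holds cells in the marrow, gave 3103, 3462 and 3807, and 3321, 3545 and 3405.

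Although the states differ in division, cell cycle genes also had members. There were 6 in 4 of 37 genes (0.468%, against 0.26% of all peaks and 0.13% outside the band). The strongest lay 83622 bp from Ccnd2, which encodes cyclin D2 (chromosome 6, 127235810 to 127237478), and gave 3909, 3966 and 3459 in quiescent cells, against 3378, 3354 and 3320 in proliferating cells. Every quiescent sample lay above every proliferating sample, by a log2 fold of 0.17 with a 95% interval of -0.036 to 0.377. A member in Cdk6, a partner of D cyclins, gave 2307, 1503 and 1757, and 2412, 1739 and 1903, and sample 1 was the highest in each group (limma, adjusted p for number = 0.0426). A member in Ccnd3, which encodes cyclin D3, gave 1148, 1095 and 1200, and 1202, 1040 and 1087.

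Quiescence and growth arrest genes had 6 members in 5 of 30 genes (0.468%, against 0.346% of all peaks and 0.586% of strong distal peaks outside the band). One lay 7415 bp from Rb1, the retinoblastoma gene that restrains entry into the cell cycle (chromosome 14, 73333366 to 73334923), and gave 2154, 1545 and 1483 in quiescent cells, against 2188, 1494 and 1320 in proliferating cells. Sample 1 was again the highest in each group (limma, adjusted p for number = 0.0221). A member in Gas7 had a mean of 2564. Genes of chromatin loops and architecture had 2 members in 2 of 18 genes (0.156%, against 0.157% of all peaks and 0.26% outside the band). The one in Nipbl, which encodes the cohesin loader, had a mean of 1349.

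Stem and progenitor genes had 9 members in 6 of 19 genes (0.703%, against 0.138% of all peaks and 0.26% outside the band). A member in Flt3, a receptor of early progenitors (chromosome 5, 147340280 to 147341829), gave 2075, 2082 and 2267 in quiescent cells, against 1901, 1869 and 1881 in proliferating cells, without overlap. Its log2 fold was 0.184, with a 95% interval of -0.035 to 0.403. A member 11289 bp from Lmo2, an adaptor of stem-cell transcription complexes, gave 2266, 2136 and 2426, and 2171, 2107 and 2119, and the groups overlapped.

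Markers of other cells had few members. There were 4 in 3 of 20 myeloid genes (0.312% of members, 0.103% of all peaks and 0.0651% of strong distal peaks outside the band). There was 1 in 1 of 20 T and NK genes, near Klrb1c (0.0781%, against 0.119% of all peaks). Outside the band this list had 4 strong distal peaks (0.26%). There was 1 in 1 of 16 erythroid and megakaryocyte genes, in Vwf (0.0781%, against 0.0607% of all peaks and 0.0651% outside the band). There were 6 in 3 of 13 plasma and plasmacytoid dendritic cell genes (0.468%, against 0.179% of all peaks and 0.195% outside the band). The ratio of the share of members to that of all peaks was thus no smaller for the myeloid, plasma and stem cell lists than for B-lineage factors. The plasma list's members lay in or near Tcf4, Prdm1 and Runx2, of which Tcf4 encodes an E protein also used by B cells. A list of 24 genes of other tissues had 0 members. All 11 lists were chosen with earlier results of these data known, and their shares are descriptions with no test.

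The label of the cells was checked at gene ends. The B-cell markers Cd79a, Cd79b, Pax5, Ebf1, Ms4a1, Vpreb1 and Igll1 each had a peak there, with a strongest mean of 823 at Cd79b to 5350 at Igll1. On the deposited scale their signal was not the same in both groups. Ms4a1, which encodes CD20, gave 978, 1120 and 1090 in quiescent cells, against 1690, 2230 and 2270 in proliferating cells. Pax5 gave 870, 778 and 921, against 1360, 1180 and 1220. At 5 of these 7 genes, Cd79a, Cd79b, Pax5, Ms4a1 and Igll1, every quiescent sample lay below every proliferating one on the deposited scale. Over all tested peaks the groups did not overlap, in either direction, in 30.4%. The direction at these genes was not examined on estimated reads. With median-of-ratios factors the median fold of members moved from -0.01 to 0.35. The median of the strongest gene-end peak was 2.16 for myeloid and 5.02 for T and NK genes, with no such peak at 10 of 20 genes in each list and one with a mean of 100 or more at 6 and 5 genes. It was 0 for erythroid and megakaryocyte genes, with none at 11 of 16 and a mean of 100 or more at 5, and 0 for other tissues, with none at 21 of 24 and such a mean at 1. Plasma and plasmacytoid dendritic cell genes had a median of 174, with none at 3 of 13 and such a mean at 7. In bulk samples fewer open cells and less open chromatin per cell cannot be told apart.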

How the data were processed

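ATAC-seq signal was analysed for 6 samples, 3 per group. Library preparation used a commercial kit and each library was run 2 times on the sequencer, per the labels' protocols. Bowtie2, SAMtools, MACS2 and mm10 are named in the submitters' processing notes, without versions, and the sources used here do not give the transposase offset, the counting or the scaling. The authors deposited a signal per sample for 1 shared list of 97124 peaks, with totals of 20904407 to 21518630 per sample.

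The design named a test for raw counts, with limma for a normalized signal; the deposited signal needed the latter. limma 3.58.1 (R 4.3.3, intensity trend) was fitted to log2(value + 1) over the 87411 peaks above the lowest 10% by mean, with Benjamini-Hochberg adjustment. Fold changes are on that scale. Sample number was tested as an F-test beside the group. Same-numbered samples deviated together over tested peaks (correlations of deviations from group means 0.43, 0.285 and 0.21 for numbers 1, 2 and 3; quiescent 2 with proliferating 3 also gave 0.22 and quiescent 3 with proliferating 2 gave 0.146, so numbers 2 and 3 were not well separated). Every same-numbered pair exceeded 0.1, but so did those unlike pairs, so this limit cannot show that numbers 2 and 3 pair. The replicate block, an alternative to the main fit, took all numbers as pairs, from these data and not from the labels.

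To estimate reads, the step of 1 read was followed along peak strength in 5 rounds (Python 3.11.15, numpy 2.4.6, pandas 2.3.3). Of values of 1 to 1000 reads, 99.36% to 100.0% came out within 0.1 of a whole number. Estimated reads in peaks ran from 8052647 to 48826051. The main fit between states and the sample-number fit were tested on simulated data. The fit between states with the replicate block and the limma-voom fits were not. Alternatives were other pseudocounts, filters, scalings and limits, and each sample left out.

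Gene positions came from RefSeq (GRCm38.p6, which mm10 is built on), with a peak assigned to the protein-coding gene it overlaps or the nearest within 100 kb, which is a position and not a target. The table has no exons. Letters were read only before annotated starts, and the planned motif search in whole members was not run as no genome was used here. Named members are the strongest, the most and least even, those at each limit, the strongest per gene list, at non-coding gene ends and in the largest groups. Sequences from chromosome 18 were left out, and some named members and markers are not reported here. Members and lists were chosen with earlier results of these data known. Plots used matplotlib 3.10.9.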

Additional observations from a re-analysis of the deposited data

How the results depend on the processing

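Membership rested on the scaling more than on any library. Of 1281 members, 1008 to 1169 stayed in the fold band when a sample was left out on deposited values, 1255 when log2 values were averaged and 656 at a band of 0.1. With median-of-ratios factors 130 stayed. With a sample left out, an alternative chosen after seeing the data, 817 to 954 stayed under total scaling (851 without quiescent sample 2, 817 without proliferating sample 1) and 86 to 357 under median-of-ratios factors (357, 86 and 134 without quiescent samples 1, 2 and 3, and 105, 187 and 347 without proliferating samples 1, 2 and 3). The rule met 2122 peaks at a band of 0.4, 656 at 0.1, 2907 at a mean of 500 and 366 at 2000. It met 1043 when distance was taken to every gene and 950 at 10 kb. Groups of 2 or more members numbered 52 within 5 kb.

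Of tested peaks, 15999 passed between states with the replicate block, 13026 under total scaling and 12213 under median-of-ratios factors, against 5876. Leaving out a sample gave 0 to 8241, with 161 without quiescent sample 2, 0 without quiescent sample 3 (16512 at an unadjusted p under 0.05), 790 without proliferating sample 2 and 1160 without proliferating sample 3 in limma. Members called between states numbered 38 (2.97%) under total scaling, beside 14.9% of tested peaks, and 335 (26.2%) under median-of-ratios factors, beside 14.0%. They numbered 0 with the block, beside 18.3% of tested peaks, and 0 to 5 with a sample left out. The 5 (0.39%) came without proliferating sample 1, beside 9.43% of tested peaks. The rule used this contrast, so nothing is read from these counts. For sample number, 148 members (11.6%) passed under total scaling and 197 (15.4%) under median-of-ratios factors, against 91 (7.1%). Over all tested peaks 5108 (5.84%) and 5580 (6.38%) passed, against 3443 (3.94%). In strong distal peaks outside the band the shares were 15.9% and 18.9%, against 9.24%. The median SD inside groups was 0.122 to 0.163 with a sample left out. The pairing of the samples by number was fitted on deposited values only, where the rule sets the calls on members. The cause of each change was not tested.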
